A study of Mus musculus with 6 samples.

Results

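The genes examined were the E proteins Tcf3, Tcf4 and Tcf12 and the Id proteins Id1, Id2 and Id3, chosen by name as 6 of the 16440 genes of the table. E proteins are basic helix-loop-helix transcription factors that bind E boxes (CANNTG) as dimers, with each other or with tissue-restricted partners such as Tal1. Id proteins carry the helix-loop-helix but no basic region, so an E protein bound by an Id protein cannot hold DNA. E proteins are best known for driving lymphoid development, and the level of Id proteins in blood progenitors is known to bear on the choice between lymphoid, myeloid and erythroid fates. Tcf3 encodes E2A (the E12 and E47 isoforms), Tcf4 encodes E2-2 and Tcf12 encodes HEB.

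The comparison was made in 6 RNA-seq libraries, 3 from normal mouse myeloid progenitors (MPs) and 3 from c-Kit+ acute promyelocytic leukemia (APL) progenitors, and addressed which genes are dysregulated in immature APL cells. The MPs were bone marrow (BM) cells sorted by the phenotype Lin-Sca-1-c-Kit+, which takes in several kinds of progenitor. The APL cells came from hMRP8-PML/RARα transgenic mice, in which the human MRP8 promoter drives the fusion gene in myeloid cells; they had been labeled with GFP by the MigR1 retrovirus, expanded by transplantation into syngeneic mice and sorted as GFP+ c-Kit+ cells. Both groups are labelled with the strain FVB N/J, and the labels name neither a treatment nor an age. The series calls the 3 libraries of a group biological replicates but does not say that they came from separate mice or separate leukemias, so n counts libraries and the p-values measure the spread between them. Totals before scaling lay between 20608715 and 28382785 fragments per library. The gate was checked against its defining gene: Kit was at 70.6 to 74.5 FPKM in the MP libraries and 39.6 to 40.7 FPKM in the APL libraries, while Cd34 fell from 83.9 to 112 FPKM to between 1.04 and 1.26 FPKM. In bulk RNA, fewer cells of a type and less RNA per cell cannot be told apart.

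Values are given as scaled fragments, the number of fragments per gene after the authors' scaling of each library, or as FPKM where levels of different genes are set side by side. Differences were tested with limma on log2(scaled fragments + 1) over 14595 genes, with Benjamini-Hochberg adjustment over all of them, and a gene was called at an adjusted p under 0.05 and a fold change over 1.5. Values in groups of 3 are in the order of libraries 1, 2 and 3. Over all genes tested, 24.4% were called lower and 21.7% higher in c-Kit+ APL progenitors (46.1% in either direction), and the median log2 fold change was −0.10. Against this, 2 of the 6 genes were called higher (Id1 and Id2) and 3 lower (Tcf3, Tcf12 and Id3). For all 6 genes the MP and APL libraries were apart, with 4 genes lower and 2 higher in APL. This held for 70.9% of all genes tested, 39.8% lower and 31.1% higher in APL. A two-sided exact permutation test gave p = 0.1 for each of the 6, the smallest p that 3 libraries against 3 allow.

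E proteins bind E boxes, whereas Id proteins do not bind DNA and keep E proteins from it. The promoters of the 3 called genes with the most fragments and a sequence in the RefSeq table (build GRCm38.p6) are shown. Each is the 250 bases before the annotated start, 5′ to 3′ on the strand of the gene, with E boxes (CANNTG, searched on both strands) in capitals. Id2 lies at chr12:25096093-25096342 (minus strand), Tcf3 at chr10:80433636-80433885 (minus strand) and Tcf12 at chr9:72111820-72112069 (minus strand).
Id2: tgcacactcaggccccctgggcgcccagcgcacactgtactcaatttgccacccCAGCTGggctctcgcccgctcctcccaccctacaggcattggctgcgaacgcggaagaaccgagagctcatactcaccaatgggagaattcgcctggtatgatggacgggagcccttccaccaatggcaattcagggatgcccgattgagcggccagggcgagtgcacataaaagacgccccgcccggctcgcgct
Tcf3: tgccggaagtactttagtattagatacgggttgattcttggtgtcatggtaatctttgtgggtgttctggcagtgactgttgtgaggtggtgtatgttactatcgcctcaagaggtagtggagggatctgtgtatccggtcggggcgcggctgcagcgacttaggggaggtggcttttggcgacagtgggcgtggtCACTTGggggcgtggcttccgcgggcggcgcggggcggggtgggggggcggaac
Tcf12: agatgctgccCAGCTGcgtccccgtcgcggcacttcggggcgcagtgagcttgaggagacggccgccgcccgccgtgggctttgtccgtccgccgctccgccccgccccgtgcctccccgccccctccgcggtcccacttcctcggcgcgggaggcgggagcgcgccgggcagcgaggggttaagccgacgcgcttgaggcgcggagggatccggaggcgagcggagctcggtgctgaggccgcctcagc
Each of the 3 held 1 E box, as 66.2% of the 32851 promoters of the table held at least 1. The E boxes of Id2 and Tcf12 were CAGCTG, a word that 13.0% of all promoters held, and that of Tcf3 was CACTTG. The Id2 promoter held 3 copies of CCAAT or its reverse complement ATTGG, against 2.79% of promoters with 3 or more. The Tcf3 and Tcf12 promoters held none of these and 3 and 4 copies of GGGCGG (or CCGCCC), as did 8.47% and 4.09% of promoters with at least that many. Their GC content was 62.8% for Id2, 59.6% for Tcf3 and 76.8% for Tcf12, with a median of 52.4% over all promoters. The promoter of Id3 at chr4:136143572-136143821 (plus strand) held no E box. Tcf12 had 3 annotated starts, of which the outermost is shown. No promoter is shown for Id1 and Tcf4. A match is a description of the letters and not evidence that a factor binds there.

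Id1, an Id protein widely expressed in dividing and immature cells, was the gene of the 6 with the largest increase. Its Entrez identifier is 15901, and its locus in GRCm38 is chromosome 2, bases 152736274 to 152737410. Normal MPs held 133, 96.2 and 120 scaled fragments of Id1, and c-Kit+ APL progenitors 693, 816 and 684. Each APL library lay several times above each MP library. The mean went from 116 ± 18.7 to 731 ± 73.7 scaled fragments (SD, n = 3 each), or from 6.35 ± 1.00 to 41.1 ± 4.23 FPKM. The log2 fold change was 2.65 (standard error 0.15, 95% confidence interval 2.32 to 2.98, adjusted p = 6.0e-07 from limma), a 6.27-fold increase. Of all genes tested, 4.59% had a larger increase.

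Id2, known for its part in natural killer and innate lymphoid cells and in dendritic cells, also increased in c-Kit+ APL progenitors. Its identifier is 15902 and its locus chromosome 12, bases 25093799 to 25096092. Normal MPs held 299, 165 and 289 scaled fragments of Id2, and c-Kit+ APL progenitors 556, 593 and 590. The APL libraries were close to each other, whereas MP library 2 stood below the other MP libraries. The coefficient of variation was 29.8% in normal MPs, the highest among the 6 genes, and 3.53% in APL. The log2 fold change was 1.25 (standard error 0.21, 95% confidence interval 0.78 to 1.73, adjusted p = 6.8e-04 from limma), a 2.38-fold increase. Without MP library 2 it was 0.98, and the gene was still called. MP library 2 was also the lowest MP library for Id1, and it was the lowest for the summed FPKM of the 8 neutrophil markers listed (Ltf, Ngp, Camp, Mmp8, Mmp9, Cxcr2, S100a8 and S100a9), which was 18380, 11830 and 15312 in normal MPs and 45653 to 59538 in APL. Of these 8 markers, 2 were called higher (S100a8 and S100a9) and 2 lower (Ltf and Ngp) in APL, and none was at 0. Among all genes tested, 21.7% were higher and 24.4% lower. S100a8 and S100a9 made up most of the sum in both groups, and Camp, Mmp8, Mmp9 and Cxcr2 were not called. Egr1, an immediate early factor known to act upstream of Id genes and named after its values were seen, had the same low library, with 1352, 521 and 1286 scaled fragments in the MP libraries. It fell to between 346 and 378 in the APL libraries (log2 fold change −1.40, adjusted p = 0.0037 from limma). The part of either in the values of Id2 was not tested.

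Id3, the Id protein best known from B and T cells, was near the limit of detection. Its identifier is 15903 and its locus chromosome 4, bases 136143822 to 136145392. Normal MPs held 4.68, 4.76 and 6.31 scaled fragments of Id3, which are 5, 5 and 7 fragments before scaling, and the gene was listed at 0 in each of the 3 APL libraries. A count of 0 allows up to 3 fragments per library, and set against that limit Id3 was at least 1.60-fold lower in APL. It passed the filter on low values only through the MP libraries, so its call as lower (adjusted p = 1.7e-04 from limma) is no support for a direction shared by the group. Its fitted fold change depends on the pseudocount and is not given. With at least 10 scaled fragments required in 3 libraries, Id3 was not tested and 2 of the 6 genes were lower.

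**Figure D1:**
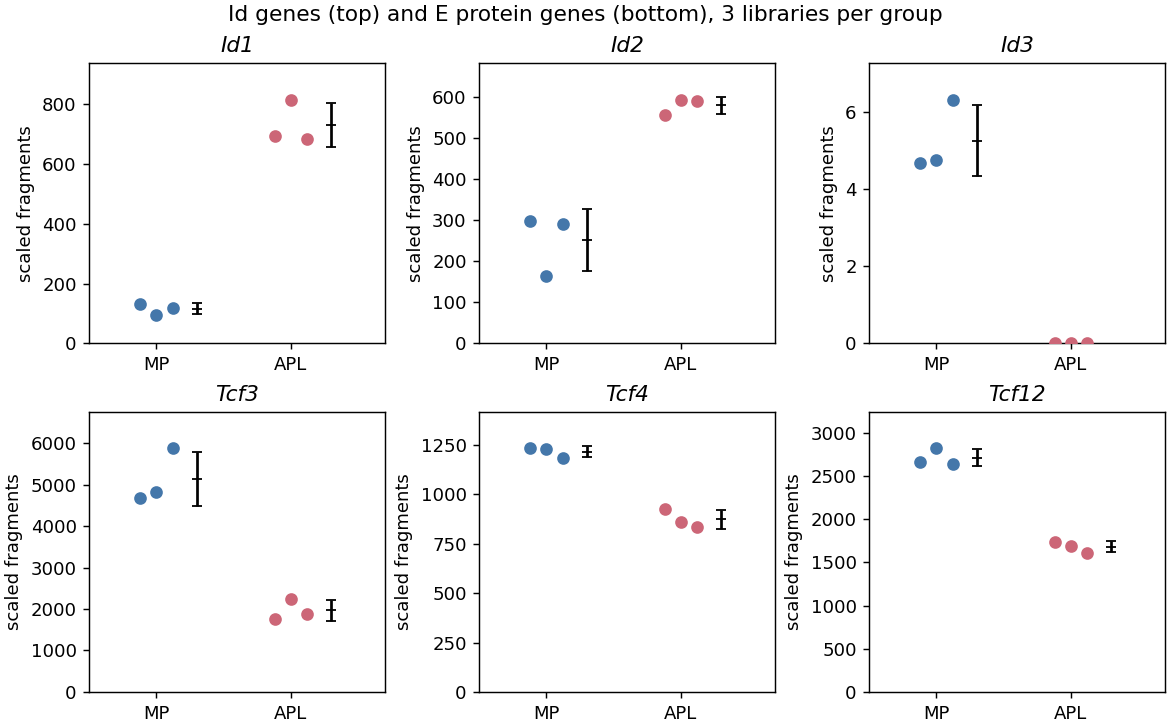
Scaled fragments (vertical axis, from 0, a scale of its own in each panel) of the 6 genes in the 3 MP libraries (blue) and the 3 APL libraries (red). Points are libraries 1 to 3 from left to right and black bars are mean ± SD; Id1 and Id2 lie higher in all APL libraries, Tcf3, Tcf4 and Tcf12 lie lower, and Id3 is at 0 there.

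Tcf3 (E2A), the E protein required for early B cell development, was the E protein with the highest level and the largest decrease. Its identifier is 21423 and its locus chromosome 10, bases 80409165 to 80433653. The identifier and locus are those of E2A and not of Tcf7l1, a Wnt pathway factor to which older annotation gave the symbol Tcf3. Normal MPs held 4680, 4826 and 5878 scaled fragments of Tcf3, and c-Kit+ APL progenitors 1767, 2246 and 1890. MP library 3 was the highest, and the lowest MP library was still well above the highest APL library. The mean fell from 5128 ± 654 to 1968 ± 249 scaled fragments (SD, n = 3 each), or from 60.2 ± 5.91 to 23.3 ± 2.77 FPKM. The log2 fold change was −1.38 (standard error 0.12, 95% confidence interval −1.64 to −1.12, adjusted p = 8.3e-06 from limma), a 2.61-fold decrease. Of all genes tested, 13.9% had a larger decrease. The table gives a value per gene, so the E12 and E47 isoforms were not resolved.

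Tcf12 (HEB), the E protein best known from T cell precursors, decreased less. Its identifier is 21406 and its locus chromosome 9, bases 71844252 to 72111819. Normal MPs held 2669, 2823 and 2644 scaled fragments of Tcf12, and c-Kit+ APL progenitors 1738, 1688 and 1612. The libraries of each group were tightly grouped, with a coefficient of variation of 3.57% in MP and 3.78% in APL. The log2 fold change was −0.69 (standard error 0.07, 95% confidence interval −0.84 to −0.54, adjusted p = 2.0e-05 from limma), a 1.61-fold decrease. The interval includes the threshold of 1.5-fold. RefSeq places 2 pseudogenes (Gm18821 and Rpl15-ps2) within the locus of Tcf12, and neither has an overlapping entry in the deposited table.

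Tcf4 (E2-2), the E protein that specifies plasmacytoid dendritic cells, had the smallest difference. Its identifier is 21413 and its locus chromosome 18, bases 69344492 to 69687967, which is that of E2-2 and not of the Wnt factor Tcf7l2. Normal MPs held 1233, 1227 and 1181 scaled fragments of Tcf4, and c-Kit+ APL progenitors 924, 862 and 833. The groups did not overlap and the spread within each was small. On the log2 scale the difference was −0.48 (standard error 0.07, 95% confidence interval −0.64 to −0.31, adjusted p = 4.1e-04 from limma). This 1.39-fold difference passed the adjusted p, as it did for 67% of all genes tested, but not the fold change of 1.5, so Tcf4 was not called. With each library scaled to the same total, which lowers the median over all genes to −0.23, the value of Tcf4 was −0.61 and the gene was called. RefSeq places the long noncoding RNA Gm31439 in the same locus, and whether the counting used strand is not given in the sources used here.

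**Figure D2:**
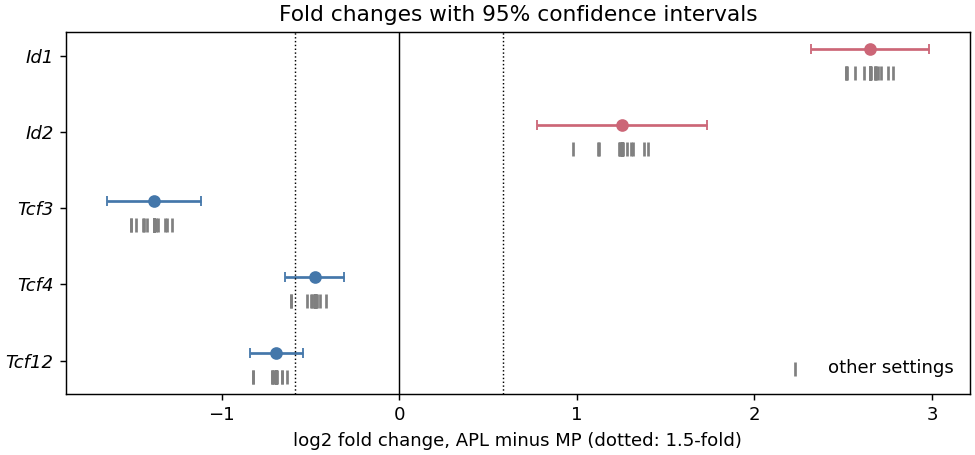
Log2 fold changes (APL minus MP, horizontal axis) of the 5 genes with fragments in all 6 libraries, with 95% confidence intervals from limma (circles and bars) and the values under the other settings tried (grey ticks). Dotted lines mark 1.5-fold; Id1 is at 2.65, Id2 at 1.25, Tcf3 at −1.38, Tcf12 at −0.69, and the intervals of Tcf12 and of Tcf4 (−0.48) cross the threshold.

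Per transcript length, the order of the 6 genes differed between the groups. In normal MPs the order by mean FPKM was Tcf3 at 60.2 ± 5.91, Tcf12 at 21.2 ± 0.535, Id2 at 8.84 ± 2.56, Id1 at 6.35 ± 1.00, Tcf4 at 6.10 ± 0.0712 and Id3 at 0.271 ± 0.0353 (SD, n = 3). The libraries of Id2 and Id1 overlapped, as did those of Id1 and Tcf4, so the order of these neighbours was not resolved. In c-Kit+ APL progenitors the order was Id1 at 41.1 ± 4.23, Tcf3 at 23.3 ± 2.77, Id2 at 20.6 ± 0.725, Tcf12 at 13.1 ± 0.658 and Tcf4 at 4.35 ± 0.301 FPKM, with Id3 listed at 0. Only Tcf3 and Id2 overlapped there as neighbours. Among all genes tested, the mean FPKM of Id1 lay above that of 48.1% of genes in normal MPs and of 86.4% in APL. For Tcf3 these shares were 91.4% and 76.6%.

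The Id genes and the E protein genes were also summed in FPKM in each library, as a description without a test. The 3 Id genes together were at 18.1, 11.5 and 16.7 FPKM in normal MPs and at 58.8, 67.4 and 58.8 FPKM in APL. The 3 E protein genes together were at 82.7, 85.7 and 94.0 FPKM in MP libraries and at 39.1, 43.8 and 39.4 FPKM in APL libraries. The E protein sum was therefore above the Id sum in every MP library and below it in every APL library. The ratio of Id to E protein FPKM was 0.219, 0.134 and 0.178 in normal MPs and 1.5, 1.54 and 1.49 in APL. Its mean went from 0.177 ± 0.0423 to 1.51 ± 0.0245 (SD, n = 3), an 8.54-fold difference. In scaled fragments, which are not divided by length, the ratio was below 1 in both groups and differed 7.03-fold. These are RNA levels, and a ratio of RNA levels is not a ratio of protein molecules.

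Most of both shifts came from a single gene on each side. Id1 made up 75.1% of the rise of 46.2 FPKM in the Id sum, and Id2 25.5%. Tcf3 made up 78.9% of the fall of 46.7 FPKM in the E protein sum, Tcf12 17.4% and Tcf4 3.73%. The composition of the sums shifted with this. Id1 was 41.7% ± 4.62 of the Id FPKM in normal MPs and 66.5% ± 1.45 in APL (SD, n = 3). Tcf3 was 68.7% ± 2.15 of the E protein FPKM in normal MPs and 57.1% ± 3.60 in APL, whereas Tcf12 went from 24.3% ± 1.68 to 32.2% ± 2.54 and Tcf4 from 6.99% ± 0.520 to 10.7% ± 1.06. In each of these 4 shares all APL libraries lay on one side of all MP libraries. The E protein shares are parts of the same sum and so are not separate results. Those of Tcf12 and Tcf4 rose although the FPKM of both genes was lower in APL.

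**Figure D3:**
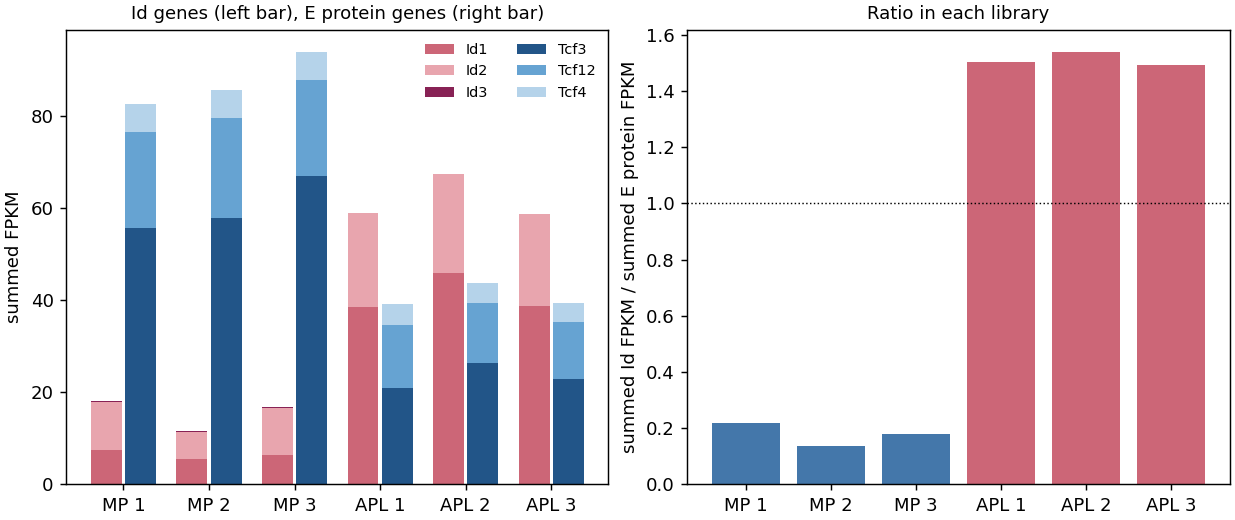
Left, FPKM of the Id genes (left bar of each pair) and of the E protein genes (right bar) stacked in each of the 6 libraries; right, the ratio of the summed Id FPKM to the summed E protein FPKM, with a dotted line at 1. The ratio is at most 0.219 in the MP libraries (blue) and at least 1.49 in the APL libraries (red).

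Of the tissue-restricted bHLH factors that pair with E proteins, 8 of the 15 listed were tested. Called lower were 3 (Tal1, Atoh8 and Tcf15) and higher 3 (Ascl2, Bhlha15 and Tal2), against 24.4% and 21.7% of all genes tested. The median log2 fold change was 0.60 against −0.10 over all genes. It lay between Lyl1 (0.50) and Scx (0.70), neither of which was called. Scx had at most 9 fragments before scaling in any library, and its groups overlapped. Tal1, the partner required for blood stem cells and erythroid cells, went from 4242, 5072 and 4713 scaled fragments in normal MPs to 1044, 1135 and 1101 in APL (log2 fold change −2.09). Lyl1, the close relative of Tal1, had 2898, 2673 and 3516 in MP and 3790, 4343 and 4694 in APL. The log2 fold change of Lyl1 was 0.50, which passed the adjusted p (0.0045 from limma) and not the fold change of 1.5, but Lyl1 was called higher without MP library 3 (0.61) and without APL library 1 (0.59). Ascl2, a factor of intestinal stem cells and follicular helper T cells, rose from 14.8 ± 2.14 to 342 ± 50.5 scaled fragments (log2 fold change 4.44). Bhlha15 (Mist1), a factor of secretory cells, rose from 93.1 ± 7.45 to 776 ± 54.3 (3.05). Atoh8 and Tcf15 were listed at 0 in the APL libraries and had at most 8 fragments before scaling in any MP library. They passed the filter only through the MP libraries, and against a limit of 3 fragments per APL library they were at least 1.04-fold and 1.40-fold lower, which does not reach 1.5-fold. Tal2 had at most 2 fragments in the MP libraries. With at least 1 scaled fragment required in all 6 libraries, 1 gene of the list was lower (Tal1).

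Of the 14 listed proteins that join E proteins in larger complexes, 12 were tested, with a median of −0.94. Of these, 7 were lower and 2 higher, against 24.4% and 21.7% of all genes tested. Lower were Gata1, Gata2, Gata3, Ldb1, Ssbp2, Ssbp3 and Cbfa2t3, and higher were Lmo1 and Ssbp4. Lmo2, the adaptor that bridges Tal1 and the GATA factors, had 6986 ± 933 scaled fragments in MP and 5356 ± 224 in APL. Its log2 fold change of −0.38 did not reach 1.5-fold. Gata1, the erythroid and megakaryocytic factor, had a log2 fold change of −7.40, and Gata2, a stem cell and mast cell factor, −5.33. The adaptor Ldb1, named after its values were seen, had −1.90. Gata3 had at most 1 fragment in the APL libraries, and its fold change is not given. The erythroid markers of the MP gate moved in the same direction: 5 of the 7 listed were lower, among them Klf1, Epor and Hba-a1, whose near-identical copy can share its reads. The summed FPKM of the 7 was 197 to 234 in the MP libraries and 8.32 to 17.0 in the APL libraries, and none was at 0 in all APL libraries. Of the 6 megakaryocyte markers, 5 were lower, with a summed FPKM of 68.8 to 104 in MP and 3.53 to 4.83 in APL. Their part in the values of Tal1, Gata1 and the E proteins was not tested.

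Among the 6 coactivators, Kat2b (PCAF), a histone acetyltransferase, rose from 869 ± 27.3 to 2156 ± 57.8 scaled fragments (log2 fold change 1.31), and Carm1, an arginine methyltransferase, fell from 2178 ± 32.9 to 786 ± 48.7 (−1.47). The other 4 were not called, while 46.1% of all genes tested were called in either direction. Of the 8 other helix-loop-helix inhibitors and repressors, Id4 did not pass the filter on low values, and 4 genes were tested. Bhlhe40, a stress-responsive repressor, rose from 126 ± 29.9 to 640 ± 22.9 (2.36). Hes1, the Notch target, was at 27.2, 33.3 and 47.8 scaled fragments in MP and at 0, 0 and 1.23 in APL, and Hey1 had at most 7 fragments in any library. Both were called lower, and with at least 1 scaled fragment required in all 6 libraries neither was tested.

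Of the 12 listed genes that set the lifetime of Id and E proteins, all were tested, with a median log2 fold change of −0.17. While 46.1% of all genes tested were called in either direction, 1 of these was. This was Cdc27, a subunit of the anaphase-promoting complex, at 2676 ± 191 scaled fragments in normal MPs and 1648 ± 77.8 in APL (−0.70). Usp1, the deubiquitinase known to stabilize Id proteins, had 6959, 6470 and 6772 scaled fragments in normal MPs and 6691, 6723 and 7479 in APL. The groups overlapped and the log2 fold change was 0.05 (adjusted p = 0.60 from limma), with a sign that turned with the same total, quantile normalization and voom weights. Cdc20 and Fzr1, the activators of the anaphase-promoting complex, had log2 fold changes of −0.32 and −0.23 and were not called.

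Of the 21 listed genes of signals that act on Id genes, 19 were tested, with a median of −0.20. Of these, 8 were lower and 3 higher, against 24.4% and 21.7% of all genes tested. With at least 1 scaled fragment required in all 6 libraries, 5 were lower. Eng (endoglin), a coreceptor of BMP9 and TGF-β, was at 2693 ± 308 scaled fragments in normal MPs and 27.2 ± 4.39 in APL (log2 fold change −6.58), and the type I receptor Acvr1 went from 82.2 ± 8.35 to 2.44 ± 2.36 (−4.92), with at most 4 fragments in any APL library. Bmpr1a, another type I receptor of the BMP pathway, went the other way, from 14.0, 14.3 and 4.51 scaled fragments in MP to 249, 215 and 281 in APL (4.52). Tgfbr2, Smad1, Smad3, Smad6, Smad9 and Egr1 were the other genes that fell. Smad6 and Smad9 had at most 1 fragment before scaling in any APL library and passed the filter only through the MP libraries. Smad9 had at most 9 fragments in any MP library. Cebpa and Cebpb, myeloid factors named here after their values were seen, rose with log2 fold changes of 1.34 and 1.96.

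Of the 20 listed lymphoid genes known as targets of E2A, 16 were tested, with a median of −1.65. Of these, 9 were lower and 5 higher, against 24.4% and 21.7% of all genes tested. With at least 1 scaled fragment required in all 6 libraries, 4 were lower and 4 higher. Dntt, the terminal transferase of early lymphocytes, was at 1421 ± 317 scaled fragments in normal MPs and 15.4 ± 4.07 in APL (log2 fold change −6.44), and Cd79b, a chain of the B cell receptor, went from 363 ± 45.9 to 6.83 ± 3.04 (−5.62). Rag1, a recombinase gene named after its values were seen, had 23.4, 20.0 and 16.2 scaled fragments in MP and was listed at 0 in APL, at least 6.06-fold lower. Ebf1, the B lineage factor downstream of E2A, had at most 6 fragments before scaling in any library. Igll1, the λ5 chain of the surrogate light chain and a known E2A target, went the other way. It rose from 15.9, 27.6 and 9.92 scaled fragments in normal MPs to 4567, 5264 and 4873 in APL (log2 fold change 8.13). Vpreb1 and Vpreb3, named after their values were seen, also rose (3.35 and 2.54), with at most 148 fragments before scaling in any library. Of the 7 B lymphoid markers in the table, 3 were lower and 2 higher (Igll1 and Vpreb1), and their summed FPKM was 14.5 to 16.1 in MP and 257 to 297 in APL. Most of the sum was Cd79b in MP and Igll1 in APL. With FPKM in place of scaled fragments, 4 of the E2A targets were lower and 5 higher.

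Of the 12 listed genes known as targets of E2-2 in plasmacytoid dendritic cells, 11 were tested, with a median of −1.31. Of these, 7 were lower and 2 higher, against 24.4% and 21.7% of all genes tested. Irf8 fell by 4.91 on the log2 scale, and Ccr9, a chemokine receptor, was at 11.2, 20.9 and 20.7 scaled fragments in MP and at most 1.18 in APL. Tlr7, an RNA sensor, rose from 63.9 ± 9.54 to 916 ± 37.5 scaled fragments (log2 fold change 3.83). With FPKM 3 genes of the list were lower, and with at least 10 scaled fragments required in 3 libraries 4 were lower. Of the 7 dendritic cell markers, 4 were lower (Siglech, Ccr9, Flt3 and Zbtb46), and Itgax, Xcr1 and Cd209a were not called. The summed FPKM of the 7 was 19.7 to 28.6 in MP and 0.919 to 1.05 in APL. Most of the MP sum was Flt3, at 14.6 to 22.8 FPKM. Siglech and Ccr9 are also among the listed E2-2 targets. The part of the dendritic cell markers in the values of the E2-2 targets was not tested.

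All 11 listed E protein targets of the cell cycle and of progenitors were tested, with a median of 0.53. Called higher were 5 (Cdkn1a, Cdkn1c, Cdkn2a, Cdkn2c and Gfi1) and lower 2 (Ccnd2 and Gfi1b). Over all genes tested, 21.7% were higher and 24.4% lower. Cdkn2a, which encodes the cell cycle inhibitors p16 and p19 and is known to be activated by E proteins and restrained by Id1, was listed at 0 in all 3 MP libraries and had 111, 119 and 85.2 scaled fragments in APL. Against a limit of 3 fragments per MP library it was at least 37.6-fold higher. It passed the filter on low values only through the APL libraries. With at least 1 scaled fragment required in all 6 libraries, 4 genes of the list were higher and 2 lower. Ccnd2, a D-type cyclin, was at 2469 ± 236 scaled fragments in normal MPs and 14.4 ± 2.48 in APL (−7.33). Gfi1b, a repressor of erythroid and megakaryocytic cells, fell from 2661 ± 509 to 16.6 ± 6.54 (−7.30), while its paralog Gfi1, a repressor of granulocytic cells named after its values were seen, rose with a log2 fold change of 1.65.

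**Figure D4:**
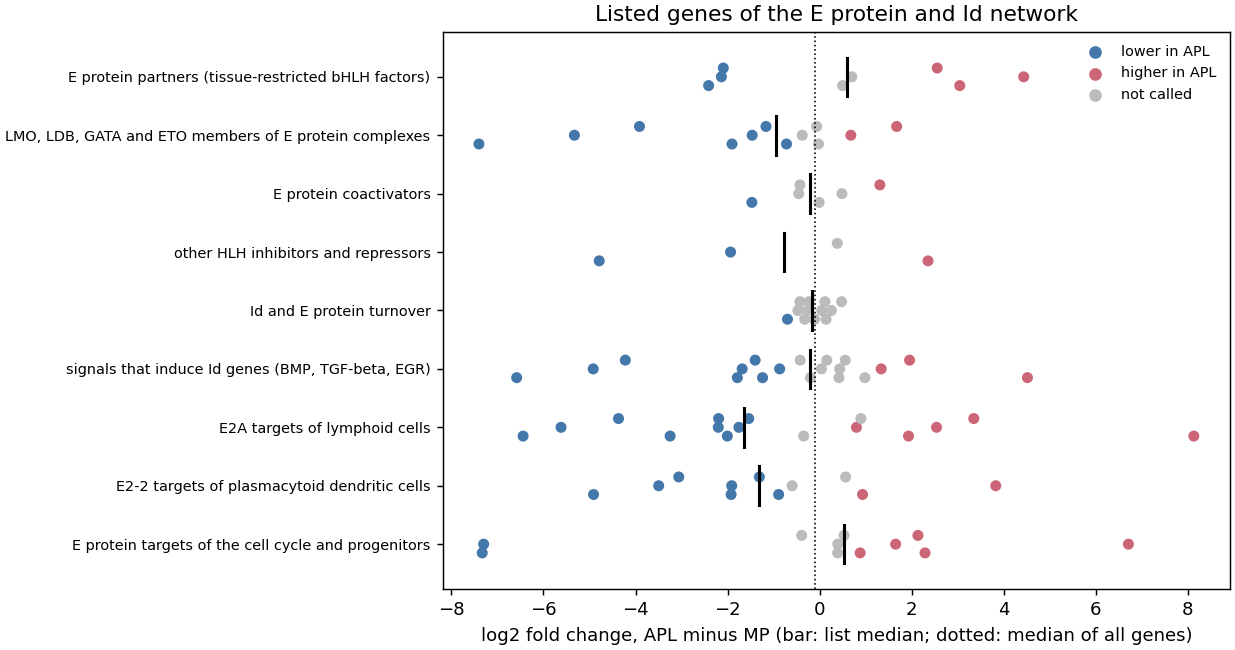
Log2 fold change (APL minus MP, horizontal axis) of each tested gene in the 9 lists; blue genes were called lower, red higher and grey not called, black bars are list medians and the dotted line is the median of all genes at −0.10. The turnover list lies close to 0, while most other lists, the E2A and E2-2 targets among them, spread widely to both sides. Values of genes at 0 in a group depend on the pseudocount.

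The genes whose values across the 6 libraries lay closest to those of each gene were found among 10853 genes with a mean of at least 1 FPKM, by the Euclidean distance of centred log2(scaled fragments + 1). Closest to Id1 were Inpp5j (distance 0.152) and Cebpd (0.213), a granulocytic C/EBP factor. Closest to Id2 were the neutrophil gene S100a9 (0.196) and Siglece (0.204), an inhibitory receptor of myeloid cells. Closest to Tcf3 were Mknk2 (0.121) and Clybl (0.127), to Tcf4 Ubap2l (0.0483) and Topbp1 (0.0642), and to Tcf12 Prdm15 (0.0413) and Rasa1 (0.0600). None are given for Id3, whose values on this scale are set by the pseudocount. With 2 groups of 3 libraries, such a distance is set mainly by the size of the difference between the groups.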

How the data were processed

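The authors deposited a table with an FPKM value (fragments scaled to transcript length and library size) and, for each gene in each library, a value for its fragments. These deposited fragment values are a signal in which 1 fragment is worth 0.937, 0.952 and 0.902 in the MP libraries and 1.18, 0.867 and 1.23 in the APL libraries, and 87.6% to 90.3% of nonzero values were whole multiples of that step (within 0.05 fragments), too few for a count test. Per the labels, CASAVA 1.8, TopHat2 2.0.6 and mm10 were used, whereas the methods of the study name STAR, mm9, HTSeq-count and DESeq2. Loci follow GRCm38 and are given counted from 1, after adding 1 to the start as written, which then equalled the RefSeq start for 7057 of 16336 genes against 586 without.

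limma 3.58.1 in R 4.3.3 (lmFit, eBayes with a trend) was run on log2(scaled fragments + 1) for genes with at least 1 in 3 of the 6 libraries. On simulated data (14533 genes), 198 of 200 changed genes were recovered with 8 false calls, 90 of 92 at 2-fold and 108 of 108 at 4-fold. The changed genes were drawn only from genes with many fragments, and the spread setting was the same for all genes. These 200 changed genes were also a far smaller share than the 46.1% called in the data. The recovery therefore does not apply to genes with few fragments, such as Id3. Limits on counts of 0 cover counting error only. The 6 genes and the lists were chosen with earlier results of these data known. Named were the 6 genes, a fixed set of 9 genes (Id4, Tal1, Lyl1, Lmo2, Usp1, Cdc20, Fzr1, Ebf1 and Irf8), the 3 called genes of each list with the largest fold change, and the 2 genes closest to each of the 6 (not given for Id3). Alternatives changed the filter, pseudocount, scaling, unit, variance model, block, thresholds and libraries. Values of some single marker genes are not reported here. The numbers 1 to 3 of the titles do not state a pairing.

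Levels of other marker lists were also read, to be set against 24.4% lower and 21.7% higher among all genes tested. Of the 7 myeloid progenitor markers, 3 were lower (Kit, Cd34 and Myb) and 3 higher (Mpo, Elane and Ctsg). Their summed FPKM was 8765 to 9839 in MP and 23081 to 27549 in APL. T and NK lymphoid markers were at 3.94 to 6.19 in MP and 2.51 to 3.38 in APL. Only Cd4 and Klrb1c of these were called, both lower. Mast cell and basophil markers were at 48.1 to 66.1 and 37.5 to 43.0. Among these 6, 5 were lower, and Mcpt8 was higher at 35.5 to 40.3 in APL. Monocyte and macrophage markers were at 24.8 to 29.9 and 54.4 to 57.3, with 2 lower (Csf1r and Cx3cr1). The 4 higher were Emr1, Cd68, Ccr2 and Mrc1. Stromal and endothelial markers were at 12.2 to 15.3 and 3.45 to 4.82, most of it Pecam1 in both groups. Lower were 4 of them (Col1a2, Pecam1, Kdr and Cxcl12), and 2 were higher (Col1a1 and Lepr).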

Additional observations from a re-analysis of the deposited data

How the results depend on the processing

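Id1, Id2, Tcf3 and Tcf12 kept their direction and their call under the 18 alternatives to the fit, with log2 fold changes between 2.52 and 2.78, 0.98 and 1.40, −1.51 and −1.28, and −0.82 and −0.63. Tcf4 was lower under all 18 (−0.61 to −0.41) and passed the fold change of 1.5 with the same total (−0.61) and with voom weights (−0.61), both of which lower the median of all genes to −0.23. Id3 was called lower under the 16 alternatives that tested it. As it was at 0 in every APL library and passed the filter only through the MP libraries, this is no support for its direction. With 1 library left out at a time, 3 of the 6 genes were lower (Tcf3, Tcf12 and Id3) and 2 higher each time. With a fold change over 2 required, 2 of the 6 genes were called lower (Tcf3 and Id3), and Tcf12 at 1.61-fold was not. Id3 passed only by its fitted value, which depends on the pseudocount. Against the limit for counts of 0 it was at least 1.60-fold lower, which does not reach 2-fold. With no minimum fold change, 5443 of all genes were lower against 3558. In scaled fragments the median ratio of Id to E protein genes was 0.0428 in MP and 0.294 in APL, against 0.178 and 1.5 in FPKM, since the long E protein transcripts are then not divided by their length. With 1 library left out it was between 0.156 and 0.199 in MP and between 1.5 and 1.52 in APL.

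Called in no setting, the log2 fold change of Usp1 turned to −0.0835 with the same total, −0.0434 with quantile normalization and −0.0838 with voom weights, and lay between −0.00507 (without APL library 3) and 0.0753 with 1 library left out. Over 39 named genes of the lists, 677 values kept their direction and call, 4 were reversed (those of Usp1), 2 gained a call (Lyl1) and 1 lost it (Ebf1 with quantile normalization). Counts of the lists with few fragments depended on the filter: with at least 1 in all 6 libraries, 4 E2A targets were lower and 4 higher, against 9 and 5, and fewer genes were lower among the bHLH partners (1 against 3), the other inhibitors (0 against 2) and the Id signals (5 against 8), since genes near 0 in APL were then not tested.

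With a replicate block by library number, 3589 of all genes were lower and 3164 higher, and the log2 fold changes and calls of the 6 genes were as without it (Id1 2.65). Deviations from the group means correlated between libraries of the same number at 0.105, 0.0124 and 0.113 over 12535 genes, and not every library correlated best with its own number, so the numbers were not taken to pair the libraries. edgeR and DESeq2, planned for the case of whole counts, were not run.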

Other observations

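The Wnt pathway factors Tcf7l1 and Tcf7l2, which have shared the names Tcf3 and Tcf4 in older annotation, were measured as genes of their own and were chosen after their values were seen. Tcf7l2 had 68, 78 and 99 fragments before scaling in normal MPs and 2, 2 and 1 in APL, and was called lower (adjusted p = 1.0e-06 from limma). Tcf7l1 had 23, 14 and 18 fragments in the MP libraries and 0, 2 and 0 in the APL libraries, and was called lower (adjusted p = 1.2e-04 from limma). Both were below the E protein genes Tcf3 and Tcf4 in each of the 6 libraries.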
